A study of Mus musculus with 8 samples.

Results

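The genes described here are the chemokines and their receptors. They were taken from the deposited expression table as the protein-coding genes whose symbol names a CC, CXC, CX3C or XC ligand or receptor, an atypical receptor of the Ackr series, or Ccrl2. The rule found 53 of 21649 genes, 32 for ligands and 21 for receptors. RNA sequencing was run on 8 libraries of fluorescence-sorted mouse cells, labelled as smooth muscle cells that are not vascular: 3 from bladder, 3 from intestine and 2 from lung. All groups share the genotype Cspg4-Dre/Acta2-CreERT/R26-GFP and the same tamoxifen course, 0.75 mg per 10 g of body weight into the peritoneum on 3 days, so the tissue is the difference between the groups that the labels give. Acta2, whose promoter drives CreERT, encodes smooth muscle actin and is also read in contractile fibroblasts, and Cspg4, whose promoter drives Dre, encodes the NG2 proteoglycan of pericytes. The labels do not say whether each library came from a separate mouse, so p-values rest on the scatter among these libraries alone, and that scatter may be technical.

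Chemokines are small secreted proteins that bind to heparan sulfate on cell surfaces and matrix and guide leukocytes along their gradients. Signalling receptors are G protein-coupled receptors found mainly on leukocytes, whereas the atypical receptors bind chemokines without G protein signalling and remove, store or present them, often on stromal and endothelial cells. In muscular and mucosal organs, stromal cells are a known source of chemokines such as Cxcl12, and endothelium, epithelium and macrophages supply others.

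Levels are the deposited normalized read counts, given library by library in the order of the replicate numbers and then as mean ± SD (n = 3 for bladder, 3 for intestine and 2 for lung). Differences between tissues are on the scale of log2(value + 1), with their standard error (SE), from limma fitted to the 18097 genes that reached 10 in 2 or more libraries. A gene was counted as higher or lower where its Benjamini-Hochberg adjusted p over those genes was under 0.05. Libraries held 9.72 to 13.62 M reads, reconstructed from the spacing of low values. For a gene at 0, an upper limit of 3 reads was set on its expected count, a normalized value of 2.47 to 3.81 depending on the library. The 3 comparisons share the libraries of their tissues, so they are not independent. The limit for a gene at 0 covers counting error only, since reads amplified without molecular identifiers can be copies of the same molecule. Across genes, the correlation was 0.967 to 0.976 between libraries of the same tissue and 0.790 to 0.878 between tissues.

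Smooth muscle genes were read in every library, and so were markers of other cell types. The 10 smooth muscle markers summed to 1599 to 1950 ppm of the values in bladder, 2694 to 2914 in intestine and 2838 to 3066 in lung, with no gene at 0. The 12 fibroblast markers summed to 5306 to 5755 ppm in bladder, 3419 to 3686 in intestine and 2464 to 2930 in lung. Macrophage markers were most abundant in bladder, where library 1 stood apart with 1010 ppm against 620 and 608, and lay between 224 and 264 ppm in the other tissues. Lymphatic endothelial markers reached 475 to 686 ppm in bladder and 1193 to 1444 in intestine but 119 to 173 in lung. In bulk libraries fewer cells of a type and less RNA per cell cannot be told apart, which holds for every value that follows. The plot of marker sums sets these lists side by side.

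**Figure D1:**
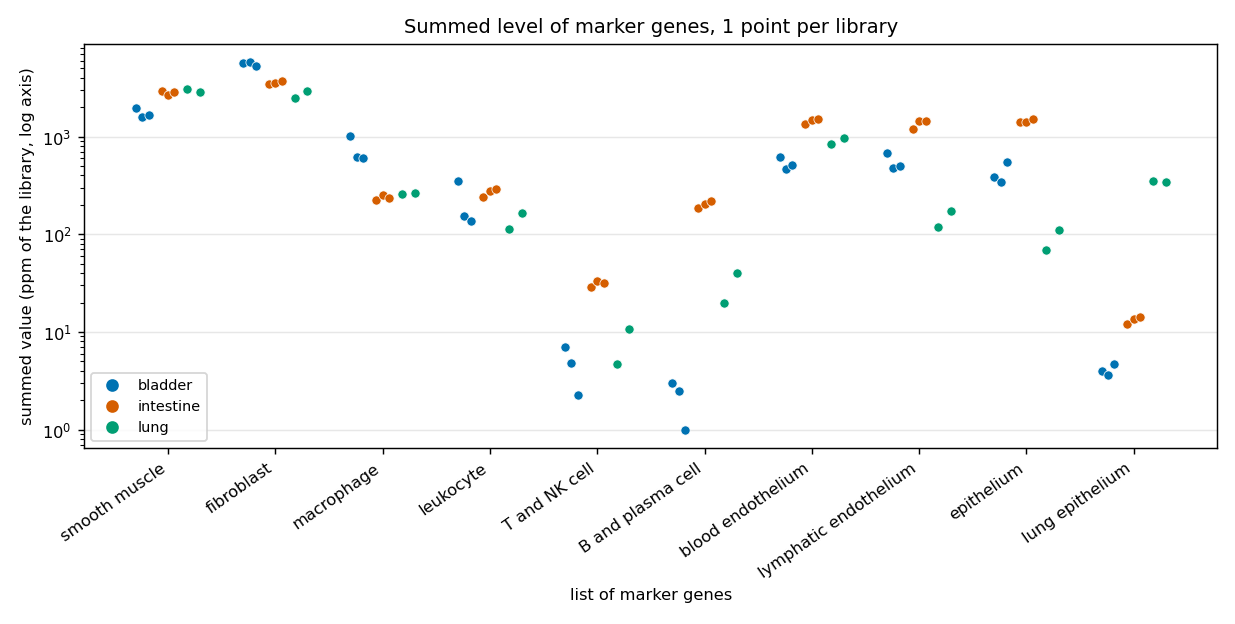
Summed value of each list of marker genes as ppm of the library's total (log axis), 1 point per library, coloured by tissue. Bladder library 1 has the highest macrophage sum, 1010 ppm, the lymphatic endothelial list is lowest in lung, and the lung epithelial list, chosen after the values were seen, is at 343 to 354 ppm in lung against 14.1 ppm at most elsewhere.

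Of the 53 genes, 47 passed the filter on low values, 31 ligands and 16 receptors. Several of them passed through a single tissue in which they were high, so their counts below describe these genes and support nothing about the family. In the comparison of intestine with bladder 22 of 47 were higher in intestine, where 28.7% of all tested genes were higher, and 11 were lower, where 23.3% of all genes were lower (51.9% in either direction). Between lung and bladder 14 were higher in lung, against 19.2% of all genes, and 14 lower, against 21.8% (41.0% in either direction). Between lung and intestine 9 were higher in lung, against 15.9% of all genes, and 18 lower, against 23.6% (39.5% in either direction). Quantile normalization shifted the split to 18 higher and 15 lower for intestine against bladder and to 13 higher and 15 lower for lung against intestine. In the F test over the 3 tissues 39 of 47 differed, where 62.9% of all genes did.

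The heatmap of levels shows that a few genes carried most of the signal. In bladder, intestine and lung, ligand values summed to 16455 ± 1287, 10750.3 ± 316 and 11472 ± 2376, and receptor values to 9293 ± 566, 7390.3 ± 120 and 2694 ± 322. The bladder sums were above every other library for both classes. The 5 atypical receptors made up nearly all of the receptor sum, with 8906 ± 452 in bladder, 6932 ± 128 in intestine and 2468 ± 283 in lung, whereas the 9 CC receptors together came to 335 ± 197, 248 ± 25.0 and 116.5 ± 34.6. Per kb of exon, the order among receptors was Ackr3, Ackr2 and Ackr4 in bladder (1333, 915 and 195 normalized counts per kb). In intestine it was Ackr3, Ccrl2 and Ackr1 (858, 578 and 305), and in lung Ackr3, Ccrl2 and Ackr1 (414, 342 and 66.6). The ligand with the highest level per kb was Cxcl14 in bladder (1918), Ccl11 in intestine (1232), and Cxcl14 and Ccl11 at 778 each in lung.

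**Figure D2:**
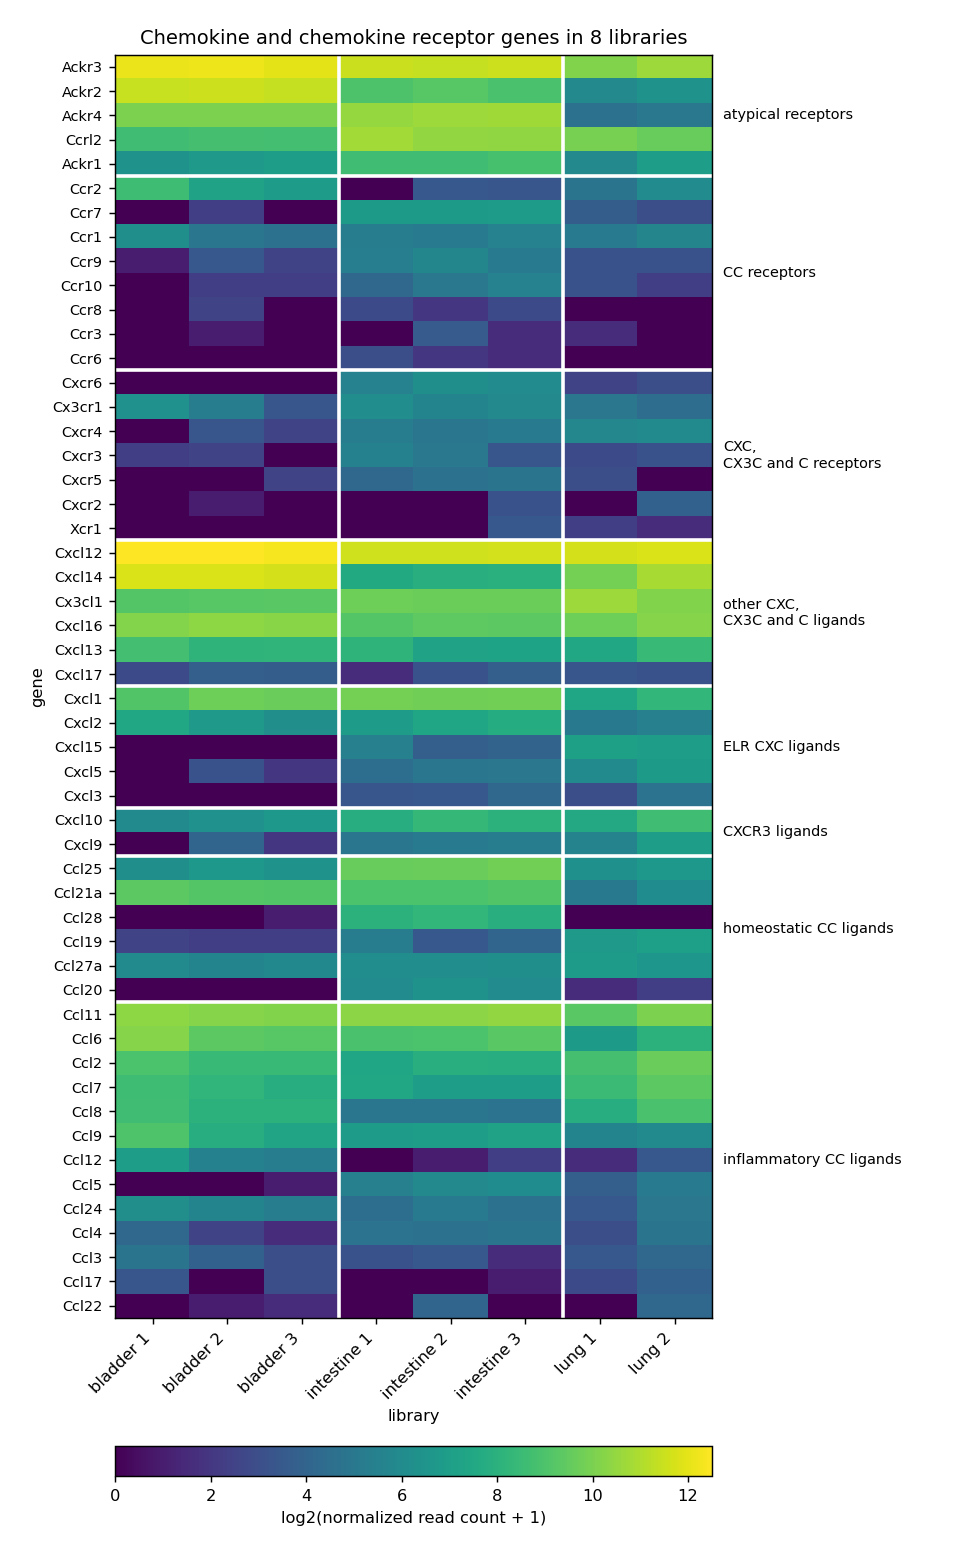
Level of 52 of the 53 genes (rows, grouped by role and sorted by their highest tissue mean) in the 8 libraries (columns), as log2(normalized read count + 1). Cxcl12, Ackr3 and Cxcl14 are the brightest rows in bladder, and most signalling receptors are dark in every tissue.

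Among the atypical receptors, Ackr2, Ackr3 and Ackr4 were lowest in lung, Ccrl2 and Ackr1 were highest in intestine, and all 5 were lower in lung than in intestine. Ackr2, a scavenger of inflammatory CC chemokines (chromosome 9, 121727421 to 121740140, build mm39), was read at 2825, 3035 and 2725 in bladder, 516, 604 and 484 in intestine, and 58 and 83 in lung. The 3 tissues formed separate ranges, with bladder at the top and lung at the bottom. Means were 2862 ± 158, 535 ± 62.1 and 70.5 ± 17.7, so the mean in bladder was 5.35 times that in intestine and 40.6 times that in lung. The log2 difference was -2.42 (SE 0.15) for intestine minus bladder and -5.34 (SE 0.16) for lung minus bladder (limma, adjusted p = 1.63e-06 and 7.86e-08). Lung was also lower than intestine, by -2.92 (SE 0.16, limma, adjusted p = 1.47e-06).

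Ackr4, which takes up Ccl19, Ccl21 and Ccl25 (chromosome 9, 103961356 to 104004132), was at 1055, 1049 and 1038 in bladder, 1486, 1623 and 1680 in intestine, and 25 and 31 in lung. Intestine libraries lay above all bladder libraries, and both lung libraries lay far below. The mean was 1596 ± 99.7 in intestine, 1047 ± 8.62 in bladder and 28.0 ± 4.24 in lung, 57.0-fold below intestine. Its log2 differences were 0.61 (SE 0.11) for intestine minus bladder, -5.18 (SE 0.13) for lung minus bladder and -5.79 (SE 0.13) for lung minus intestine, with limma adjusted p of 0.00151, 4.04e-08 and 1.79e-08. Exons of Acad11 on the opposite strand cover 8.9% of Ackr4's exon bases, and reads of the 2 genes cannot be told apart there. Lymphatic endothelial markers had the same order of tissues as Ackr4, with 6 of 6 lower in lung than in bladder (21.8% of all tested genes), 5 of 6 higher in intestine (28.7%), and Mmrn1 at 18.5 ± 3.54 in lung against 6622 ± 239 in intestine. Their part in the Ackr4 result was not tested.

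Ackr3, the second receptor of Cxcl12 (chromosome 1, 90131702 to 90144473), had the highest level per kb of all receptors in each tissue. It was read at 4575, 4703 and 4108 in bladder, 2891, 2743 and 2980 in intestine, and 1133 and 1642 in lung. No 2 tissues overlapped. The bladder mean of 4462 ± 313 was 1.55 times that in intestine (2871 ± 119.7) and 3.22 times that in lung (1387.5 ± 359.9). The call against lung (log2 difference -1.71, SE 0.14, limma, adjusted p = 1.49e-05) held under every alternative, but the one against intestine (-0.63, SE 0.12, adjusted p = 0.00188) was lost with the deposited scaling undone, at -0.24 (limma, adjusted p = 0.0743), and with quantile normalization, at -0.28 (limma, adjusted p = 0.0729). Undoing the scaling moved the median of all genes from 0.06 to 0.45 in this comparison and from 0.00 to 0.48 for lung against bladder, so differences of that size depend on it.

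Ccrl2 and Ackr1 were highest in intestine. Ccrl2, which presents the chemoattractant chemerin (chromosome 9, 110883554 to 110886587), was at 403, 443 and 437 in bladder, 1715, 1405 and 1385 in intestine, and 994 and 783 in lung. The tissues did not overlap, and intestine was highest. Its mean of 1502 ± 185 there was 3.51 times the bladder mean of 428 ± 21.6 and 1.69 times the lung mean of 888.5 ± 149. Lung exceeded bladder by a log2 difference of 1.04 (SE 0.14, limma, adjusted p = 0.000281).
Ackr1, the Duffy antigen receptor that venular endothelium uses to carry chemokines (chromosome 1, 173159453 to 173161317), was at 86, 108 and 128 in bladder, 412, 411 and 462 in intestine, and 58 and 129 in lung. Only the intestine libraries stood apart. The intestine mean of 428 ± 29.2 was 3.99 times that in bladder (log2 difference 2.00, SE 0.29, limma, adjusted p = 0.000322), and lung and bladder overlapped (log2 difference -0.29, limma, adjusted p = 0.519). Exons of Cadm3 on the same strand cover 25.7% of Ackr1's exon bases, so its level is uncertain. Blood endothelial markers were also highest in intestine, at 1338 to 1497 ppm against 471 to 616 in bladder and 848 to 975 in lung, and their part in the Ackr1 result was not tested.

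**Figure D3:**
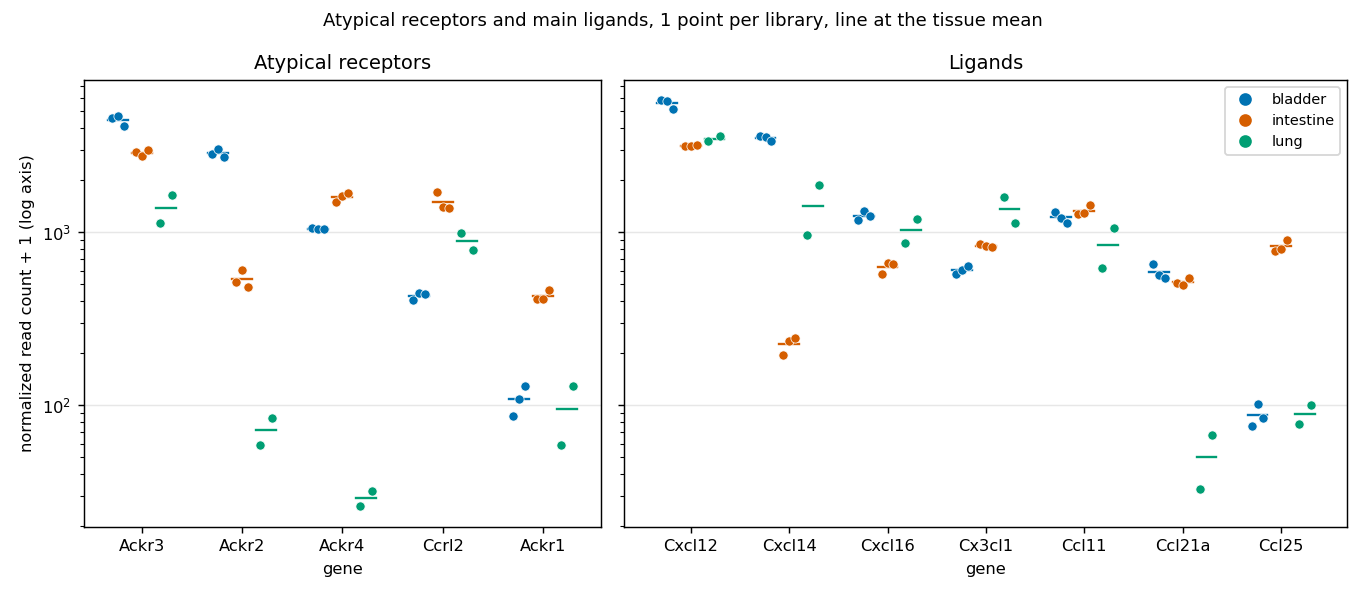
Normalized read count + 1 (log axis) of the 5 atypical receptors and 7 ligands, 1 point per library and a line at each tissue mean. Ackr2, Ackr4 and Ccl21a drop in lung, Cxcl14 drops in intestine, and Ccl25 stands out in intestine.

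Signalling receptors gave few reads, and Ccr2 had its highest mean in bladder. Of the 9 CC receptors, 6 passed the filter. Ccr2, the receptor of Ccl2 that marks monocytes, was at 391, 145 and 121 in bladder, 0, 10 and 9 in intestine, and 27 and 65 in lung. All bladder libraries lay above the others, the first by far, but the difference of lung from bladder did not pass (-2.15, SE 1.01, limma, adjusted p = 0.121). The log2 difference of intestine from bladder was -5.32 (SE 0.90, limma, adjusted p = 0.000892), and -4.80 (limma, adjusted p = 0.00441) without bladder library 1. Lung was 7.26 times intestine (log2 difference 3.17, SE 1.01, limma, adjusted p = 0.0333), a call that was lost without lung library 2 (2.55, limma, adjusted p = 0.177). That difference was 2.04 without intestine library 1 (limma, adjusted p = 0.0482), 3.77 without intestine library 2 and 3.78 without lung library 1. Without intestine library 1, at 0, or intestine library 2, the Ccr2 difference from bladder was -4.19 or -5.92, and it passed both times. Ccr1, a receptor of Ccl3 and Ccl6, ranged from 25 to 75 over the 8 libraries and passed in no comparison. Macrophage markers were lower in intestine than in bladder for 10 of 12 genes and lower in lung for 12 of 12 (23.3% and 21.8% of all tested genes), for example Csf1r at 1178 ± 529.7, 370 ± 105.6 and 193.5 ± 10.6 in bladder, intestine and lung. In lung 3 were lower and 1 higher than in intestine (23.6% and 15.9%), whereas Ccr2 was higher in lung. The part of these markers in the Ccr2 result was not tested.

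Ccr7, Cxcr6, Ccr9, Ccr10, Cxcr3 and Cxcr5, receptors of lymphocytes, all had their highest mean in intestine and passed against bladder. Ccr7, the receptor of Ccl19 and Ccl21 that guides cells into lymph vessels, was at 0, 4 and 0 in bladder, 110, 111 and 116 in intestine, and 12 and 7 in lung. Intestine stood apart from both other tissues (log2 difference 6.05, SE 0.63, from bladder, and -3.47, SE 0.70, for lung minus intestine, with limma adjusted p of 4.25e-05 and 0.00379). The call of lung above bladder was lost without lung library 1 (2.23, limma, adjusted p = 0.0819), and without bladder library 2 the differences of intestine and lung from bladder were 6.82 and 3.35. Cxcr6, the receptor of Cxcl16 on T cells, was at 0 in all 3 bladder libraries, at 46, 74 and 64 in intestine, and at 5 and 7 in lung. Intestine was at least 17.0-fold higher than bladder, with bladder set to its limit of 3 reads per library, and the log2 difference was 5.94 (SE 0.40, limma, adjusted p = 2.84e-06).

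Ccr9, the gut-homing receptor of Ccl25, was at 1, 10 and 5 in bladder, 40, 52 and 36 in intestine, and 8 and 8 in lung, and passed for intestine against bladder (log2 difference 3.08, limma, adjusted p = 0.0019, and 2.41 without bladder library 1). Its reads may include those of an unnamed gene on the opposite strand, AC165425.1, whose exons cover 18.8% of its exon bases. Ccr10, Cxcr3 and Cxcr5 had intestine means of 31.7 ± 14.0, 28.0 ± 17.7 and 23.0 ± 4.58 against 2.67 ± 2.31, 3.00 ± 2.65 and 1.67 ± 2.89 in bladder. All 3 passed for intestine against bladder (limma, adjusted p = 0.00269, 0.0107 and 0.00684). The call for Cxcr3 was lost with quantile normalization (1.84, limma, adjusted p = 0.0796). Ccr10, Cxcr3 and Cxcr5 reached 10 only in intestine libraries, so they passed the filter through that tissue and their tests against it were partly fixed. Their differences of 3.39, 2.97 and 3.70 were 2.61 for Ccr10 without bladder library 1, 2.15 and 3.61 for Cxcr3 without bladder library 3 and without intestine library 3, and 4.57 for Cxcr5 without bladder library 3, all passing. Lung was lower than intestine for Ccr9, Ccr10 and Cxcr5 (limma, adjusted p = 0.0237, 0.0498 and 0.0371), calls that were lost in several of the settings tried, for example without lung library 2 (limma, adjusted p = 0.0859, 0.225 and 0.291). T and NK cell markers summed to 29 to 34 ppm in intestine against 2.2 to 7.1 ppm in bladder and 4.7 to 10.8 ppm in lung, with Cd3e and Cd3g at 0 in all bladder libraries. B and plasma cell markers summed to 184 to 218 ppm in intestine, 1.0 to 3.0 in bladder and 20 to 40 in lung. Their part in these results was not tested.

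Cxcr4, the signalling receptor of Cxcl12, had another order, with 0, 9 and 5 in bladder, 37, 29 and 33 in intestine, and 54 and 61 in lung. Both lung libraries lay above the intestine libraries and those above bladder. Lung and intestine exceeded bladder by log2 differences of 3.90 (SE 0.83) and 3.11 (SE 0.75), with limma adjusted p of 0.00479 and 0.00639, and the difference between lung and intestine (0.79, SE 0.83, limma, adjusted p = 0.488) did not pass. Without bladder library 1, which was at 0, the difference of intestine was 2.13 and that of lung 2.91, and both passed (limma, adjusted p = 0.0025 and 0.00119), and without bladder library 2 they were 3.79 and 4.58. Cx3cr1, the fractalkine receptor of monocytes and tissue macrophages, ran from 9 to 80 in bladder, 49 to 69 in intestine and 21 to 30 in lung and passed in no comparison. The 5 receptors below the filter, Ccr3, Ccr6, Ccr8, Cxcr2 and Xcr1, did not exceed 14 in any library.

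Cxcl12 and Cxcl14, ligands made outside inflammation as well, were highest in bladder. Cxcl12, which retains and attracts cells bearing Cxcr4 (chromosome 6, 117145496 to 117158328), was at 5800, 5742 and 5182 in bladder, 3128, 3131 and 3180 in intestine, and 3342 and 3575 in lung. Bladder libraries lay above all others, and intestine and lung lay close together. The bladder mean of 5575 ± 341 was 1.77 times that in intestine (3146 ± 29.2) and 1.61 times that in lung (3458.5 ± 164.8). The log2 differences from bladder were -0.82 (SE 0.06) and -0.69 (SE 0.07), with limma adjusted p of 4.44e-06 and 4.46e-05, and lung and intestine did not pass (0.14, SE 0.07, limma, adjusted p = 0.134). The size of these Cxcl12 differences depended on scaling. Undoing it, which leaves depth uncorrected, left -0.428 for intestine and -0.175 for lung, and quantile normalization left -0.45 and -0.297, all passing. Lung minus intestine passed at 0.252 after undoing it (limma, adjusted p = 0.00655) and at 0.189 for equal totals (limma, adjusted p = 0.0336). Quantile normalization gave 0.153 (limma, adjusted p = 0.0619). Cxcl12 held 33.9% of the ligand sum in bladder, 29.3% in intestine and 30.1% in lung.

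Cxcl14, a chemokine of epithelium and fibroblasts that binds no well-established receptor (chromosome 13, 56436456 to 56444364), was at 3610, 3550 and 3351 in bladder, 194, 234 and 245 in intestine, and 961 and 1883 in lung. The tissues formed 3 separate ranges, and the lung libraries differed from each other by more than those of either other tissue. Bladder, at 3504 ± 135.6, was 15.6 times intestine (224 ± 26.8) and 2.46 times lung (1422 ± 652). The log2 difference was -3.97 (SE 0.21) for intestine minus bladder, -1.38 (SE 0.23) for lung minus bladder and 2.59 (SE 0.23) for lung minus intestine, with limma adjusted p of 8.71e-07, 0.00136 and 2.72e-05. Without lung library 1 the difference of lung from bladder was -0.90, and without lung library 2 it was -1.86, and both passed. Fibroblast markers were lower than in bladder for 12 of 12 genes in intestine and 12 of 12 in lung (23.3% and 21.8% of all tested genes), for example Pdgfra at 10688 ± 654, 6432 ± 487 and 1223.5 ± 29.0. In lung 8 were lower and 1 higher than in intestine (23.6% and 15.9%), whereas Cxcl14 was higher in lung. The part of these markers in the Cxcl12 and Cxcl14 results was not tested.

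Both chemokines that are made as membrane-bound proteins were read in every library. Cx3cl1, or fractalkine (chromosome 8, 95498637 to 95509055), was at 575, 603 and 635 in bladder, 857, 829 and 815 in intestine, and 1603 and 1135 in lung. The tissues did not overlap, and lung was highest, at 1369 ± 331 against 834 ± 21.4 and 604 ± 30.0. Lung exceeded bladder by 1.16 (SE 0.14) and intestine by 0.69 (SE 0.14), with limma adjusted p of 0.000165 and 0.00343, and intestine exceeded bladder by 0.46 (SE 0.12, limma, adjusted p = 0.0109). Cxcl16, the ligand of Cxcr6, was at 1171, 1319 and 1236 in bladder, 569, 666 and 652 in intestine, and 860 and 1197 in lung. Intestine was lowest, at 629 ± 52.4, and lung overlapped with bladder. The log2 difference was -0.98 (SE 0.13) for intestine minus bladder and 0.69 (SE 0.14) for lung minus intestine, with limma adjusted p of 0.000178 and 0.00428. Exons of Zmynd15 on the opposite strand cover 18.3% of Cxcl16's exon bases. Cxcl13, which draws B cells through Cxcr5, was at 429, 284 and 293 in bladder, 276, 145 and 152 in intestine, and 182 and 358 in lung, and passed in no comparison (limma, adjusted p = 0.0527 for intestine minus bladder).

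The ELR-type CXC ligands, which attract neutrophils through Cxcr2, split into a pair that was lowest in lung and 3 genes that were lowest in bladder. Cxcl1 (chromosome 5, 91039100 to 91040974) was at 559, 870 and 811 in bladder, 944, 890 and 918 in intestine, and 163 and 308 in lung. Lung lay below all other libraries, with a mean of 235.5 ± 102.5 against 747 ± 165 in bladder and 917 ± 27.0 in intestine. Lung was 3.17-fold lower than bladder (-1.71, SE 0.26, limma, adjusted p = 0.000755) and 3.90-fold lower than intestine (-2.03, SE 0.26, limma, adjusted p = 0.000267), whereas intestine and bladder did not pass (0.32, SE 0.23, limma, adjusted p = 0.28). Cxcl2 was at 180, 105 and 72 in bladder, 121, 167 and 211 in intestine, and 32 and 42 in lung. Lung was again below all other libraries, with log2 differences of -1.57 (SE 0.40) for lung minus bladder and -2.12 (SE 0.40) for lung minus intestine (limma, adjusted p = 0.012 and 0.00263). The call against bladder was lost without lung library 1 (-1.38, limma, adjusted p = 0.0527).

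Cxcl5, Cxcl15 and Cxcl3 lie in the same cluster and ran the other way. Cxcl15, known as lungkine from lung epithelium (chromosome 5, 90942393 to 90950926), was at 0 in all bladder libraries, at 43, 13 and 15 in intestine, and at 137 and 123 in lung. It was at least 35.9-fold higher in lung than in bladder and 5.49 times the level of intestine (log2 difference 2.61, SE 0.55, limma, adjusted p = 0.00472). Cxcl5 was at 0, 8 and 3 in bladder, 22, 29 and 30 in intestine, and 60 and 113 in lung. Lung and intestine exceeded bladder (4.66, SE 0.81, and 3.07, SE 0.72, with limma adjusted p of 0.00152 and 0.00577), and lung and intestine did not pass (1.59, SE 0.81, limma, adjusted p = 0.15). Without bladder library 1, at 0, these differences were 3.80 and 2.21, both passing (limma, adjusted p = 0.000984 and 0.00659), and without bladder library 2 they were 5.38 and 3.79. Cxcl3 was at 0 in bladder and between 7 and 26 in the other 5 libraries. Markers of lung epithelium, a list chosen after the values were seen, summed to 343 to 354 ppm in lung, 12.1 to 14.1 ppm in intestine and 3.62 to 4.75 ppm in bladder, with Sftpc at 1234 and 1272 in lung and at 6 or less elsewhere, and their part in the Cxcl15 and Cxcl5 results was not tested.

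Promoter sequences were set beside these neighbours because genes of 1 cluster differed in their order of tissues. The 120 bases before the start of each gene are given from RefSeq, build GRCm38.p6, on the strand of the gene, with matches to the NF-kB consensus in capitals. They were chr5:90891125-90891244 for Cxcl1, chr5:90903779-90903898 for Cxcl2, chr5:90785981-90786100 for Cxcl3 and chr5:90794414-90794533 for Cxcl15, all on the plus strand. These coordinates belong to another build than those above.
Cxcl1: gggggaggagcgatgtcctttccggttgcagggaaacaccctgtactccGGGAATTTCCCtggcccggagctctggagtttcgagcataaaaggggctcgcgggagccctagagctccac
Cxcl2: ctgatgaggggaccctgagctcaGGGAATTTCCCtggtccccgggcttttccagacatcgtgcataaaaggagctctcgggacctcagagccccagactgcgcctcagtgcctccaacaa
Cxcl3: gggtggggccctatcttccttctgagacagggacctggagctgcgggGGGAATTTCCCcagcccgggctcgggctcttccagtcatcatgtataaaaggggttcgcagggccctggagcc
Cxcl15: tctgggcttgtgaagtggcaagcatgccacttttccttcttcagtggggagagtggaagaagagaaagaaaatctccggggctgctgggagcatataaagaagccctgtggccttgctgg
Cxcl1, Cxcl2 and Cxcl3 shared the 11 letters GGGAATTTCCC, beginning 71, 97 and 73 bases before the start. In 60 bases aligned on the match without gaps, 40 to 50% were identical between pairs of them. That share includes the letters of the match itself. The window of Cxcl15 held no match. Cxcl3 and Cxcl15 were both at 0 in all bladder libraries, with Cxcl3 at only 7 to 26 in the other libraries. The part of these letters in the order of tissues was not tested. Promoters of 40 of the 53 genes were in the RefSeq table. Searching both strands of the 250 bases before the start, 10 of 40 (25.0%) held a match to the NF-kB consensus (Ackr2, Ccl9, Ccl20, Ccr3, Ccr6, Ccrl2, Cxcl1, Cxcl2, Cxcl3 and Cxcl10), against 4.46% of 27025 genes. A match describes the letters, not a binding site.

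Both ligands of Cxcr3 in the table, which draw T and NK cells and are known as interferon targets, were lower in bladder than in intestine and lung. Cxcl10 (chromosome 5, 92494497 to 92496748) was at 63, 79 and 99 in bladder, 219, 324 and 260 in intestine, and 184 and 402 in lung. Bladder lay below all other libraries, and lung and intestine overlapped. Intestine and lung exceeded bladder by log2 differences of 1.73 (SE 0.31) and 1.77 (SE 0.35) (limma, adjusted p = 0.00121 and 0.00293). Cxcl9 was at 0, 16 and 3 in bladder, 29, 34 and 38 in intestine, and 48 and 123 in lung. It was again lowest in bladder (3.08, SE 0.89, and 4.26, SE 0.99, with limma adjusted p of 0.016 and 0.00743), although the call for intestine was lost without intestine library 2 (3.07, limma, adjusted p = 0.0513) or 3 (2.99, limma, adjusted p = 0.058) and that for lung without lung library 2 (3.59, limma, adjusted p = 0.0572). The intestine and lung differences of Cxcl9 were 2.06 and 3.24 without bladder library 1 and 4.11 and 5.28 without bladder library 2, and the lung one was 4.92 without lung library 1. The promoter of Cxcl10 is shown because it held 2 matches to the NF-kB consensus. It is chr5:92348890-92349139 on the minus strand of GRCm38.p6, 250 bases, with the NF-kB matches, which begin 159 and 103 bases before the start, in capitals. The window also held a match, not capitalized, to the interferon-stimulated response element (ISRE) consensus, which was found in 3 of 40 promoters (Ccl19, Cxcl10 and Cxcl14), 7.5% against 3.46% of all genes.
Cxcl10: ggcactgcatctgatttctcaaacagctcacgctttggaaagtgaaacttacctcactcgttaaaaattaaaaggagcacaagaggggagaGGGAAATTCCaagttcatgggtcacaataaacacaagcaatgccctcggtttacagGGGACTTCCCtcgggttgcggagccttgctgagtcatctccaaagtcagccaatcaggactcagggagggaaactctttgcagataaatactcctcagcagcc

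Of the 6 homeostatic CC ligands, Ccl25, Ccl28 and Ccl20 were highest in intestine, Ccl19 was highest in lung and Ccl21a was lowest in lung. Ccl25, the gut chemokine that binds Ccr9 and Ackr4 (chromosome 8, 4375210 to 4410020), was at 75, 101 and 83 in bladder, 780, 796 and 905 in intestine, and 77 and 99 in lung. Intestine stood apart, and bladder and lung overlapped. The intestine mean of 827 ± 68.0 was 9.58 times that in bladder (86.3 ± 13.3) and 9.40 times that in lung (88.0 ± 15.6), with log2 differences of 3.25 (SE 0.18) from bladder and -3.23 (SE 0.20) for lung minus intestine (limma, adjusted p = 1.08e-06 and 2.61e-06). Ccl28, a mucosal epithelial chemokine that binds Ccr10 and Ccr3 (chromosome 13, 120085355 to 120115895), was at 0, 0 and 1 in bladder, 260, 305 and 239 in intestine, and 0 in both lung libraries. It was at least 105.9-fold lower in lung than in intestine, and its log2 difference of intestine from bladder was 7.73 (SE 0.43, limma, adjusted p = 1.06e-06). Ccl20, the epithelial ligand of Ccr6, was at 0 in every bladder library, at 64, 85 and 65 in intestine, and at 2 and 4 in lung. Intestine was at least 19.7-fold above bladder and 23.8 times lung. The log2 differences were 6.16 (SE 0.40) for intestine minus bladder and -4.21 (SE 0.45) for lung minus intestine (limma, adjusted p = 2.54e-06 and 8.08e-05). Ccl28 and Ccl20 reached 10 only in intestine libraries, so they passed the filter through that tissue and their tests were partly fixed. Epithelial markers summed to 1413 to 1506 ppm in intestine, 343 to 547 in bladder and 68 to 110 in lung, with Epcam at 2541 ± 117.5, 139 ± 38.8 and 44.0 ± 17.0 in that order, and their part in the Ccl25, Ccl28 and Ccl20 results was not tested.

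The other homeostatic ligands had other orders. Ccl21a, the lymphatic endothelial ligand of Ccr7 (chromosome 4, 42772860 to 42773993), was at 657, 566 and 542 in bladder, 505, 495 and 542 in intestine, and 32 and 66 in lung. Lung lay far below both other tissues, which did not pass (log2 difference -0.19, SE 0.23, limma, adjusted p = 0.525). The bladder mean of 588 ± 60.7 was 12 times the lung mean of 49.0 ± 24.0, with log2 differences of -3.64 (SE 0.26) for lung minus bladder and -3.45 (SE 0.26) for lung minus intestine (limma, adjusted p = 8.53e-06 and 9.14e-06). Lymphatic endothelial markers, whose sums are given above, were lower in lung than in bladder for 6 of 6 genes (21.8% of all tested genes) and higher in intestine for 5 of 6 (28.7%), and their part in the Ccl21a result was not tested. Ccl19, the other ligand of Ccr7, went the opposite way, at 5, 4 and 4 in bladder, 38, 10 and 16 in intestine, and 108 and 131 in lung. Lung was 27.6 times bladder and 5.60 times intestine (4.50, SE 0.54, and 2.63, SE 0.54, with limma adjusted p of 0.000174 and 0.00412). Ccl27a, known from skin keratinocytes, was at 62, 49 and 56 in bladder, 68, 70 and 73 in intestine, and 118 and 95 in lung. It was higher in lung than in bladder (0.92, SE 0.26, limma, adjusted p = 0.0203), a call lost without lung library 1 (0.77, limma, adjusted p = 0.0933) or bladder library 2 (0.84, limma, adjusted p = 0.0549). Ccl21a, Ccl19 and Ccl27a have near-identical copies in the mouse genome, so how their reads were assigned is uncertain.

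Most inflammatory CC ligands lie in a pair of gene clusters on chromosome 11. In the cluster from Ccl2 to Ccl8 (81926397 to 82007625), Ccl8 and the monocyte attractants Ccl2 and Ccl7 were lowest in intestine. Ccl2 was at 492, 348 and 339 in bladder, 167, 231 and 219 in intestine, and 448 and 801 in lung. Intestine lay below all other libraries, at 206 ± 34.0 against 393 ± 85.9 in bladder and 624.5 ± 249.6 in lung. Its log2 difference was -0.92 (SE 0.24) for intestine minus bladder and 1.55 (SE 0.27) for lung minus intestine (limma, adjusted p = 0.0105 and 0.00166), the former lost with the scaling undone (-0.53, limma, adjusted p = 0.0853). Ccl7 was at 397, 299 and 220 in bladder, 178, 123 and 122 in intestine, and 367 and 648 in lung, the same order, with -1.09 (SE 0.28) and 1.81 (SE 0.32) for those comparisons (limma, adjusted p = 0.00961 and 0.00165). Ccl8 had the widest contrast of the 3, at 408, 259 and 257 in bladder, 29, 29 and 26 in intestine, and 224 and 477 in lung. Its intestine mean of 28.0 ± 1.73 was 11-fold below bladder and 12.5-fold below lung (-3.38, SE 0.31, and 3.50, SE 0.34, with limma adjusted p of 1.85e-05 and 4.6e-05). Lung and bladder passed for none of the 3 (limma, adjusted p = 0.0955, 0.102 and 0.823). Ccl2 and Ccl7 passed for lung minus bladder with the scaling undone (1.14 and 1.23, limma, adjusted p = 0.00609 and 0.00693). Depth is uncorrected in that setting, and the median of all genes was 0.48. Ccl2 also passed with libraries scaled to equal totals (0.77, limma, adjusted p = 0.047). The differences of Ccl2 and Ccl7 were 1.05 and 1.12 without lung library 1 and 0.21 and 0.31 without lung library 2.

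The other genes of that cluster had other patterns. Ccl11, or eotaxin, which attracts eosinophils through Ccr3, had the highest level per kb of the inflammatory ligands in each tissue. It was at 1315, 1206 and 1127 in bladder, 1267, 1288 and 1443 in intestine, and 621 and 1063 in lung. Bladder and intestine overlapped, and both lung libraries lay below them. The difference of lung was -0.71 (SE 0.19) from intestine (limma, adjusted p = 0.0163), lost without intestine library 3 (-0.65, limma, adjusted p = 0.063). From bladder it was -0.58 (SE 0.19, limma, adjusted p = 0.0375). That call was lost in 12 of the settings tried, among them without each of 7 libraries in turn. With the scaling undone, where depth is uncorrected, the difference was close to 0 (-0.07, limma, adjusted p = 0.777). Ccl12, a mouse ligand of Ccr2, was at 126, 44 and 39 in bladder, 0, 1 and 4 in intestine, and 2 and 10 in lung. Bladder was highest (-4.83, SE 0.76, for intestine and -3.41, SE 0.85, for lung, with limma adjusted p of 0.000555 and 0.0104), the lung call being lost without lung library 1 (-2.48, limma, adjusted p = 0.0747). Without lung library 2 the lung value was -4.35, and without intestine library 3 the intestine value was -5.43.

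In the second cluster, from Ccl5 to Ccl4 (83416604 to 83555509), Ccl6 and Ccl9, both known from macrophages and myeloid cells, were lowest in lung. Ccl6 was at 1186, 646 and 616 in bladder, 487, 506 and 626 in intestine, and 110 and 260 in lung. Bladder library 1 was far above the other bladder libraries, which overlapped with intestine. Lung was 4.41-fold below bladder and 2.92-fold below intestine (-2.20, SE 0.37, and -1.66, SE 0.37, with limma adjusted p of 0.00132 and 0.00646), and -1.89 from bladder without bladder library 1 (limma, adjusted p = 0.00355). The 2 differences were -1.58 and -1.04 without lung library 1 and -2.81 and -2.27 without lung library 2, all passing. Ccl9 was at 529, 217 and 159 in bladder, 119, 122 and 146 in intestine, and 49 and 63 in lung, again with bladder library 1 at the top. It was lower in lung than in bladder (-2.22, SE 0.44, limma, adjusted p = 0.0031), and -1.72 without bladder library 1 (limma, adjusted p = 0.00212). The difference of lung from intestine passed without bladder library 1 (-1.19, limma, adjusted p = 0.00747) but not with it (limma, adjusted p = 0.0564). The order of the bladder libraries in Ccl6, Ccl9, Ccl12 and Ccr2 was that of the macrophage marker sum, 1010, 620 and 608 ppm, whose part in these results was not tested. That order was not particular to these genes. It also held for ligands set beside other markers, such as Cxcl12, Cxcl14 and Ccl21a.

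Ccl5, a product of T and NK cells, was at 0, 0 and 1 in bladder, 42, 59 and 67 in intestine, and 13 and 35 in lung. Both other tissues exceeded bladder (5.47, SE 0.51, and 4.16, SE 0.57, with limma adjusted p of 2.04e-05 and 0.000367, the lung value being 4.84 without lung library 1 and 3.47 without lung library 2). The T and NK cell marker sums given with Cxcr6 were above bladder in intestine and overlapped with bladder in lung, and their part in the Ccl5 result was not tested. Ccl4 was at 18, 5 and 2 in bladder, 26, 24 and 27 in intestine, and 7 and 27 in lung. It passed for intestine against bladder (1.93, SE 0.71, limma, adjusted p = 0.0448) but was lost without any 1 library of these tissues other than bladder library 1, with limma adjusted p of up to 0.147 and a difference of 1.32 without bladder library 3. Ccl24, an eosinophil attractant, was at 71, 49 and 39 in bladder, 22, 34 and 24 in intestine, and 10 and 30 in lung. It was lower in lung than in bladder (-1.51, SE 0.51, limma, adjusted p = 0.0396) and lost that call in most of the fits that left out a library, for example without lung library 1 (-0.76, limma, adjusted p = 0.257), while it was -2.25 without lung library 2. Ccl3, Ccl17 and Ccl22 did not exceed 27 in any library, and Cxcl17 did not exceed 13.

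**Figure D4:**
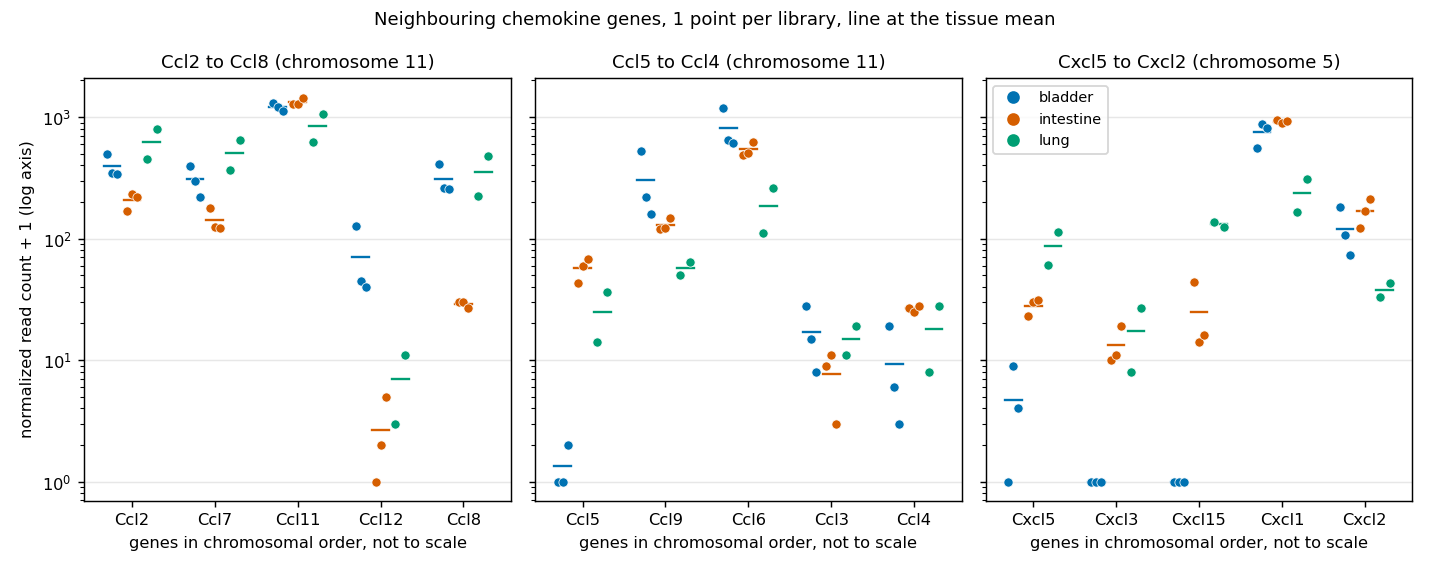
Normalized read count + 1 (log axis) of the genes of 3 clusters in chromosomal order, 1 point per library and a line at each tissue mean. Each cluster holds genes that differ in their order of tissues: intestine is lowest for Ccl2, Ccl7 and Ccl8 but not for Ccl11, and lung is lowest for Cxcl1 and Cxcl2 but highest for Cxcl15.

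With genes no more than 200 kb apart joined, 31 of the 53 genes fell into 8 clusters. Cxcl9 and Cxcl10 shared their order of tissue means, whereas the clusters of Ccl2, Ccl5 and Cxcl1 each held genes with different orders. In the cluster of Ccl2, 4 of 5 genes were lower in intestine than in bladder (23.3% of all tested genes) and none higher (28.7%), and the log2 differences ran from -4.83 to 0.13. In the cluster of Cxcl1, 3 of 5 were higher in lung than in bladder (19.2% of all tested genes) and 2 lower (21.8%), from -1.71 to 7.03.

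A test for a single highest tissue asked for both differences to pass together. It found 6 of 47 genes highest in bladder (among them Ackr2, Ackr3, Cxcl12, Cxcl14 and Ccl12), where 10.3% of all tested genes were, and 8 highest in intestine (Ackr1, Ackr4, Ccrl2, Ccl20, Ccl25, Ccl28, Ccr7 and Cxcr6), where 12.5% were. Ccl20, Ccl28 and Cxcr6 reached 10 only in intestine libraries, so they passed the filter through that tissue and their place in this count was partly fixed. Cx3cl1, Ccl19 and Cxcl15 were highest in lung (limma, adjusted p = 0.0299, 0.0347 and 0.0387), where 3.06% of all genes were. The lung count depended on each library: it was 2 without intestine library 1, 1 without lung library 2, and 0 without any 1 of the other 6 libraries. The bladder count was 1 with the scaling undone, where depth is uncorrected, and 4 without bladder library 1 or bladder library 2. The plot of differences gives the values behind these counts.

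**Figure D5:**
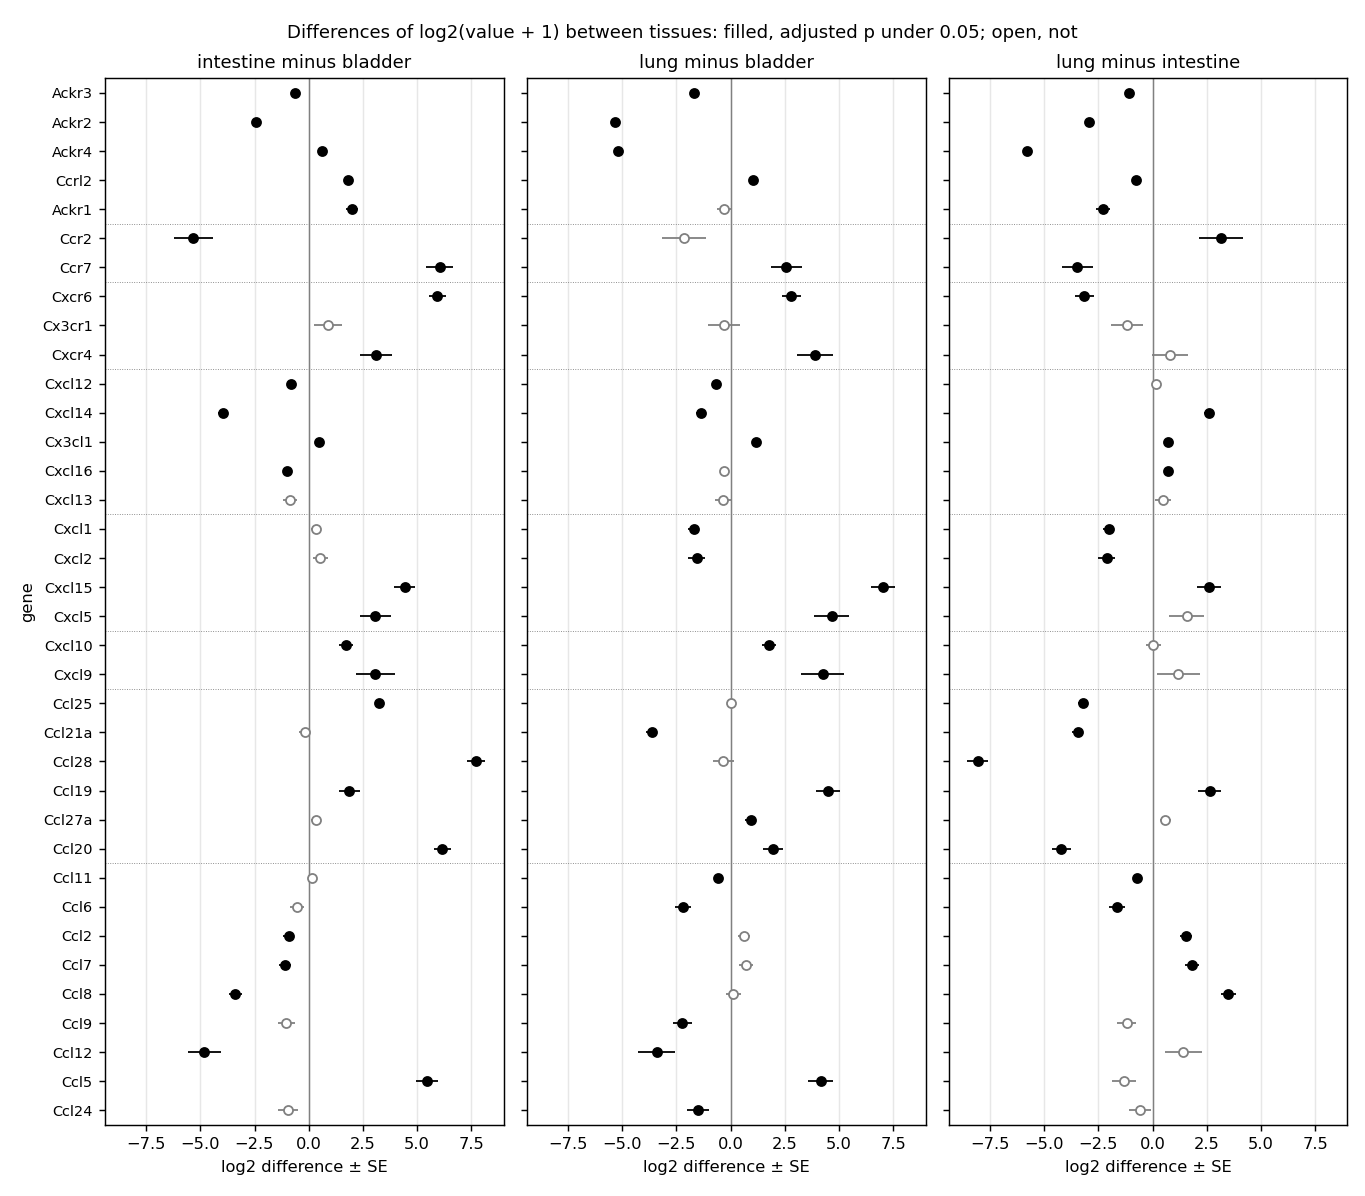
Log2 difference (value + 1) with its SE for 36 of the 37 genes whose mean reached 50 in at least 1 tissue, grouped by role, in each of the 3 comparisons. Filled points passed limma's test at an adjusted p under 0.05. All 5 atypical receptors lie below 0 for lung minus intestine, and ligands of 1 role lie on both sides.

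Ligands and their receptors were set side by side by their order of tissues only, since counts are not scaled by gene length. Cxcl12 fell from bladder to the other tissues while Cxcr4, with means of 4.67 ± 4.51, 33.0 ± 4.00 and 57.5 ± 4.95 for bladder, intestine and lung, was lowest in bladder, and Ackr3 had the order of bladder, intestine and lung. Ccl25 and its receptors Ccr9 and Ackr4 all had their highest mean in intestine, as did Ccl28 with Ccr10 and Ccl20 with Ccr6, the latter at 7, 3 and 2 in intestine and at 0 in all other libraries. Cxcl16 was lowest in intestine, where Cxcr6 was highest. For Ccl11 the receptor Ccr3 was at 11 or less in every library.

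Between libraries of 1 tissue the members did not vary evenly. Over the 47 genes, bladder library 1 was above both other bladder libraries for 22 genes, where it was for 32.0% of all tested genes, library 2 for 13 (31.1%) and library 3 for 7 (31.4%). In intestine the counts were 10 for library 1 (32.0%), 13 for library 2 (30.2%) and 23 for library 3 (35.1%). Lung library 2 was above lung library 1 for 36 genes, where it was for 50% of all genes. Leukocyte markers summed to 164 ppm in it against 113 in library 1, fibroblast markers to 2930 against 2464, and blood endothelial markers to 975 against 848. Macrophage markers were at 264 and 258 ppm. Among the cell type lists, only those of smooth muscle, platelets, mast cells and lung epithelium were lower in lung library 2. The part of these markers in the difference between the lung libraries was not tested. The ranges of the libraries did not overlap between intestine and bladder for 38 of 47 genes (63.4% of all genes), between lung and bladder for 30 (58.1%) and between lung and intestine for 36 (58.6%).

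Other genes of chemokine biology were taken from lists. Genes with other symbols, for proteins that bind chemokine receptors or resemble chemokines or their receptors, were lower in intestine than in bladder for 8 of 13 (23.3% of all tested genes) and higher for 2 (28.7%). Pf4, a chemokine of platelets also known from macrophages, had means of 259 ± 117.5 for bladder, 14.0 ± 3.00 for intestine and 58.5 ± 2.12 for lung, and Ppbp, a platelet chemokine, of 1.33 ± 1.53, 0 and 82.0 ± 56.6. Pf4 was lower in intestine and lung than in bladder (log2 difference -4.04 and -2.04, limma, adjusted p = 1.3e-05 and 0.00265), and Ppbp higher in lung (5.18, limma, adjusted p = 0.000319). Of 19 genes for proteins that make, carry or trim the heparan sulfate on which chemokines are held, 12 were lower and 2 higher in intestine than in bladder (23.3% and 28.7% of all tested genes). In lung 9 were lower and 7 higher than in bladder (21.8% and 19.2%), and 2 lower and 10 higher than in intestine (23.6% and 15.9%). The sulfatases Sulf1 and Sulf2 were highest in bladder (6225 ± 377 and 7897 ± 354, against 2480 ± 104.9 and 3868 ± 152 in intestine and 2162.5 ± 440.5 and 2631 ± 833 in lung).

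Of 13 adhesion genes used by leukocytes, 8 were higher and 2 lower in intestine than in bladder (28.7% and 23.3% of all tested genes). Madcam1, the gut-homing ligand of the integrin made from Itga4 and Itgb7, was at 797 ± 54.9 in intestine, 0.33 ± 0.58 in bladder and 21 ± 22.6 in lung (log2 difference 9.31 for intestine minus bladder, limma, adjusted p = 3.2e-06). Vcam1 went the other way, with 4092 ± 141 for bladder, 1065 ± 88.2 for intestine and 2098.5 ± 335.9 for lung (-1.94, limma, adjusted p = 6.44e-07). Of 20 genes of the NF-kB pathway, 4 were higher and 3 lower in intestine than in bladder (28.7% and 23.3% of all tested genes). In lung 8 were higher and 3 lower than in bladder (19.2% and 21.8%), and 6 higher and 5 lower than in intestine (15.9% and 23.6%). Nfkbiz, an inducible nuclear cofactor, was at 4677 ± 94.9 in intestine against 905 ± 55.8 in bladder and 900.0 ± 223 in lung (2.37 for intestine minus bladder, limma, adjusted p = 6.71e-07), and Nfkb2, which encodes the p100 precursor, was at 1996.5 ± 326 in lung, above bladder and intestine (limma, adjusted p = 0.000882 and 0.000163). Cytokines that induce chemokines were lower in lung than in intestine for 8 of 13 tested genes and higher for 4 (23.6% and 15.9% of all tested genes). Il6 was at 487 ± 137, 496 ± 54.0 and 127 ± 76.4 in bladder, intestine and lung, and Il1b at 22.7 ± 6.81, 186 ± 36.0 and 85.5 ± 41.7.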

How the data were processed

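RNA from sorted cells of 8 libraries (3 bladder, 3 intestine, 2 lung) was amplified with an unstranded SMART-Seq kit, per the labels' protocols. Per the submitters' processing notes, Trimmomatic 0.39, STAR 2.7.10a, Picard 3.0.0, featureCounts 2.0.4 and DESeq2 1.36.0 were used with mm39; neither these notes nor the labels state their settings, the annotation release or a filter. The table deposited by the authors holds whole numbers that were read as normalized counts rounded by the authors, a score and not raw counts, because low values in a library sit on multiples of 1 read's worth (0.822 to 1.27). No count model was used. Depth of 9.72 to 13.62 M reads was reconstructed from that step, and limits for genes at 0 were set at 3 reads.

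The values were taken as log2(value + 1) and fitted with limma 3.58.1 (R 4.3.3, with an intensity trend), a mean per tissue, all 8 libraries in 1 fit, over 18097 of 21649 genes with at least 10 in at least 2 libraries. Benjamini-Hochberg adjustment ran over all of these genes, with a threshold of 0.05. A highest tissue was tested by the larger p of its 2 differences. Levels per kb used exon lengths of GENCODE M21. The fit was tested on simulated data. Genes named in full were those with a tissue mean of at least 50 (37 genes); lower ones are given by range or in brief. The members and gene lists were chosen with earlier results of these data known, and the lung epithelial list after its values were seen. Alternatives were other pseudocounts, filters, scalings, no intensity trend, only the tissues compared, the replicate number as a block and each library left out. Undoing the deposited scaling returned values to reconstructed reads, with no correction for depth. Cxcl11, Xcl1, Ccl1, Ccl26, Ccr4, Cxcr1 and the further copies of Ccl21 and Ccl27 were not analysed here. 1 member is counted but not reported here.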

Additional observations from a re-analysis of the deposited data

How the results depend on the processing

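Of 88 differences between tissues that passed among the 47 tested genes, 69 did so under every alternative that gave a value, and no difference of a named gene that passed changed sign. With 1 library left out at a time, genes called in either direction ranged from 30 to 36 for intestine against bladder, from 24 to 28 for lung against bladder and from 23 to 29 for lung against intestine, and the F test called 36 to 41. Genes highest in bladder ranged from 4 to 7, in intestine from 7 to 10 and in lung from 0 to 2. With the deposited scaling undone, where depth is uncorrected, genes highest in bladder numbered 1, and without the intensity trend 3. Genes highest in lung numbered 5 with the scaling undone, 0 without the trend and 0 with the replicate block. With the replicate number as a block, 32, 26 and 26 genes were called in the 3 comparisons, and the F test called 38. The numbers were not taken as pairs because the labels do not say that a number marks a shared mouse or day. Libraries with the same number deviated from their tissue means with correlations of -0.026 to 0.058. Such values over all genes cannot exclude a shared mouse or day. Fitting only the tissues compared gives no value for results over 3 tissues. Depth limits what can be said of the signalling receptors, most of which had fewer than 50 normalized reads.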
